A study of Drosophila melanogaster with 3 samples.

Results

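Transfer RNA (tRNA) genes encode the small adaptor RNAs that carry amino acids to the ribosome. The Ensembl annotation of the Drosophila melanogaster genome holds 290 genes of this biotype on chromosomes 2L, 2R, 3L, 3R, 4 and X, out of 17896 annotated genes, and every one of the 290 was taken, with no selection on binding. A gene was counted as having a summit when the summit of a peak in the authors' thresholded list lay within 500 bp of its start. Of the 290 tRNA genes, 34 (11.7%, 95% Wilson interval 8.51 to 15.9%) had such a summit and 256 had none. The same count gave 19.7% of all annotated genes and 10.8% of the 3661 noncoding genes other than tRNA genes, so the tRNA share was near that of other noncoding genes.

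The peaks come from chromatin immunoprecipitation followed by sequencing (ChIP-seq) of the fru gene product in whole wandering larvae of the last larval stage. The strain, fru-MiMIC-GFP, carries an eGFP exon inserted in an intron of fru, which makes a fusion protein from the gene's own locus, and an anti-GFP antibody was used. The 3 biological replicates form 1 group, with males and females pooled, so no condition could be compared and cell types within the larva cannot be told apart. Age beyond the stage is unknown per the labels, and a control experiment that the labels name was not analysed here. The fru gene encodes several transcription factors with a BTB domain and zinc fingers, known above all for shaping male courtship.

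Most genes studied with transcription factors are read by RNA polymerase II, whereas tRNA genes are read by RNA polymerase III (Pol III). Their promoter lies inside the gene: an A box and a B box, which become the D arm and the T arm of the tRNA, are bound by the factor TFIIIC. TFIIIC then places TFIIIB just upstream of the gene, and TFIIIB brings in Pol III. Many tRNA genes are present in identical copies, often in clusters, and active tRNA genes have open chromatin and can act as boundaries between domains in several organisms. Isotype is the amino acid the tRNA carries, and the anticodon is the triplet that reads the codon; a name such as tRNA:Tyr-GTA-1-8 gives the isotype, the anticodon, the sequence family and the copy.

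The genes printed here are a tyrosine, a glutamine and a lysine tRNA gene, whose summits are among the 4 strongest at any tRNA gene, and a cysteine tRNA gene from the locus with most genes near a summit. Sequences were read from the RefSeq Release 6 genome (dm6), on the gene's own strand. Capitals mark each match to GTTCNA, the conserved stretch of the T arm that lies in the B box. The glutamine gene has a further match at its start.
tRNA:Tyr-GTA-1-8 gene, 3R:8669081-8669174, minus strand: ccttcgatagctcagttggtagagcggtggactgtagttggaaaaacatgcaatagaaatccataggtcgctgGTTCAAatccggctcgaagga
tRNA:Gln-TTG-2-1 gene, X:3427452-3427523, minus strand: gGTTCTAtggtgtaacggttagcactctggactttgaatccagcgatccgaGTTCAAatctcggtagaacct
tRNA:Lys-TTT-1-1 gene, 2L:8290727-8290799, plus strand: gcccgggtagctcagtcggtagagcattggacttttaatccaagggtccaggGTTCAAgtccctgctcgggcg
tRNA:Cys-GCA-1-3 gene, 3L:3096369-3096440, plus strand: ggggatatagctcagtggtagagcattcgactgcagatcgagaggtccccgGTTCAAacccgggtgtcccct

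The bases under the summits of these genes are given next, 50 on each side of the summit base, all on the plus strand of dm6. The capital letter is the summit base. They are shown because each of these summits lay beside its tRNA gene and not in it. No stretch printed here holds part of that gene, although the called region at tRNA:Cys-GCA-1-3 reaches into it. The labels give fragments of 200 to 800 bp, longer than any of these genes, so a summit does not place binding to the base.
Summit 193 bp upstream of the start of tRNA:Tyr-GTA-1-8, 3R:8669317-8669417: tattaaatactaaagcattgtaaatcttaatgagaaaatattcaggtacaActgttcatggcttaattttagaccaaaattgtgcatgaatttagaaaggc
Summit 226 bp upstream of the start of tRNA:Gln-TTG-2-1, X:3427699-3427799: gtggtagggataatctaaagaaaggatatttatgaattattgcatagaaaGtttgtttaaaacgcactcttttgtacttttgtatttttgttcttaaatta
Summit 321 bp downstream of the start of tRNA:Lys-TTT-1-1, 2L:8290998-8291098: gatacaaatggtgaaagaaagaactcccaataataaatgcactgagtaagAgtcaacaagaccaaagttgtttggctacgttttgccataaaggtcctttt
Summit 169 bp upstream of the start of tRNA:Cys-GCA-1-3, 3L:3096150-3096250: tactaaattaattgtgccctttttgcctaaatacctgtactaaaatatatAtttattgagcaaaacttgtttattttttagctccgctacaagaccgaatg

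The thresholded list held 8996 regions with a signal value between 104.5 and 15085, a score made by the authors that has no fixed range. The list of the pooled reads and the list of each replicate held 30000 regions called peaks and background. From each replicate its 8996 strongest regions were used, as many as the thresholded list holds, and a thresholded summit was called present in a replicate when one of its strong summits lay within 100 bp. The lists hold no read counts, so the depth behind a region is unknown. Intervals on shares and counts cover counting error only, and tRNA genes of 1 locus share summits, so they are not independent.

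The 34 genes were served by 25 distinct summits, 0.278% of the thresholded list. Bases within 500 bp of a tRNA start make up 0.164% of the genome, in which 14.8 summits would fall if the 8996 were spread evenly, a ratio of 1.69. In terms of genes, 6.04% of all positions of the 6 chromosomes lay within 500 bp of a thresholded summit, which corresponds to 17.5 of 290 genes, or 18.2 when the distance of each gene to a protein-coding transcription start site (TSS) was matched. The 34 observed genes were 1.87 times that matched number. Of the 25 summits, 14 had 1 tRNA gene within 500 bp, 7 had 2 and 4 had 3 or more.

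The count depended on the distance chosen, at 22 genes with 250 bp and 63 with 1000 bp. The genes just inside the 500 bp boundary were tRNA:Ser-CGA-1-2 at 482 bp, tRNA:Val-CAC-2-5 at 473 bp, tRNA:Cys-GCA-1-1 at 463 bp and tRNA:Pro-AGG-1-2 at 427 bp. Just outside were tRNA:Leu-CAA-2-2 at 550 bp, tRNA:Gly-GCC-2-1 at 561 bp, tRNA:Val-AAC-2-2 at 568 bp and tRNA:Arg-ACG-1-1 at 592 bp. Over all 290 genes the median distance to the nearest thresholded summit was 3307 bp, and 134 genes had none within 5000 bp.

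The strongest summit at a tRNA gene was that of tRNA:Tyr-GTA-1-8, whose product carries tyrosine. It had a signal value of 1477, place 142 of 8996, and stood at places 171, 144 and 139 in replicates 1, 2 and 3. All 3 replicates thus held it among their strongest regions. The gene lies in introns of CG8036 and p, with the summit 251 bp from a TSS of CG8036 and 193 bp upstream of the tRNA start. The other tyrosine genes of this locus, tRNA:Tyr-GTA-1-7 and tRNA:Tyr-GTA-1-6, started 662 and 1159 bp from the same summit.

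Below it stood tRNA:Gln-TTG-2-1, which carries glutamine, on X in an intron of CG12535. Its summit had a signal value of 929, place 416, with places 363, 430 and 441 in the replicates. No protein-coding start was close: the nearest TSS, of CG14269, lay 8058 bp from the summit. This tRNA gene stands alone and has no identical copy. These were the only summits at tRNA genes among the 1000 strongest of the thresholded list.

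The histidine gene tRNA:His-GTG-1-3 on 2R came next, with a signal value of 554 (place 1068) and places 1949, 826 and 1072 in the replicates. Its summit was nearer to a TSS of CG8490, at 99 bp, than to the tRNA start, at 151 bp. The lysine gene tRNA:Lys-TTT-1-1 lies alone in an intron of Btk, the fly Btk family tyrosine kinase, 6076 bp from summit to TSS. Its summit had a signal value of 527 and places 1093, 1190 and 1363 in the replicates, which differed little. The glutamate gene tRNA:Glu-TTC-1-5 on 2R had a summit with a signal value of 409 and places 1913, 1334 and 1636, at 13129 bp from the nearest protein-coding TSS.

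The proline gene tRNA:Pro-AGG-1-3 on 2L had its summit 33 bp upstream of its start, with a signal value of 406 and places 2618, 1484 and 1857 in the replicates. This gene overlaps an exon of osp and lies over 10000 bp from any protein-coding TSS. The same summit lay within 500 bp of tRNA:Pro-AGG-1-4, and a weaker one of signal value 150 lay 427 bp upstream of tRNA:Pro-AGG-1-2, so all 3 genes of this locus had a summit. The weaker summit was among the strong regions of replicates 1 and 3 and at place 9256 in replicate 2, just short of them.

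A further group of summits stood beside both a tRNA gene and a protein-coding start. The aspartate gene tRNA:Asp-GTC-1-5 had a summit with a signal value of 357 at 104 bp from a TSS of Sema1a, a semaphorin of axon guidance. The phenylalanine gene tRNA:Phe-GAA-1-2 had one with a signal value of 340 at 61 bp from RpL17, which encodes a protein of the large ribosomal subunit. The tryptophan gene tRNA:Trp-CCA-2-2 (309, 62 bp from CG30122), the isoleucine gene tRNA:Ile-AAT-1-3 (306, 31 bp from ATP8A), the proline gene tRNA:Pro-CGG-2-1 (136, 185 bp from Bx) and the valine gene tRNA:Val-CAC-2-5 (351, 426 bp from Naam) were of the same kind, the value in brackets being the signal value. In these 6 and at His-GTG-1-3 the TSS was the nearer of the 2 starts, and so it was for a further, weaker summit at Ile-AAT-1-3. Whether such a summit belongs to the tRNA gene or to its neighbour cannot be told apart from positions alone. In all, 17 of the 25 summits were nearer to the tRNA start and 8 to the TSS, while 11 lay within 500 bp of a protein-coding TSS and 6 lay beyond 10000 bp of one.

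**Figure D1:**
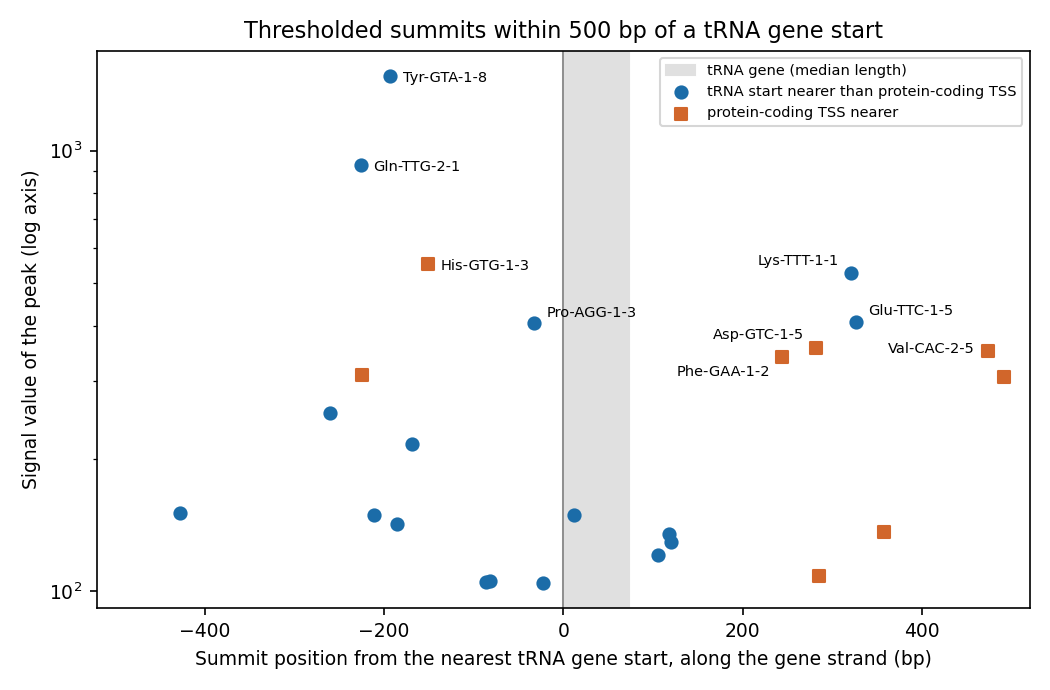
Signal value (log axis) of the 25 thresholded summits within 500 bp of a tRNA gene start, against the summit's position from the nearest tRNA start along the gene's strand in bp. Circles are summits nearer to the tRNA start (17) and squares those nearer to a protein-coding TSS (8). The grey band is a gene of median length, 73 bp, and 1 summit, at +12 bp, falls within its own gene.

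The tRNA gene itself, at a median of 73 bp, fills only a small part of the window searched. With fragments of 200 to 800 bp, summits cannot separate so short a gene from its flanks. From 0 to 99 bp past the start there was 1 pair of gene and summit, against 1.95 at the mean density of the genome. Measured along the strand of the nearest tRNA gene, 13 summits were upstream of the start, 11 were past the end and 1 was in the gene, the glutamate gene tRNA:Glu-CTC-1-1 at 12 bp from its start. The median distance to the start was 211 bp, and the called regions of 13 of the 25 summits overlapped a tRNA gene. A region overlapping the gene body by at least 1 bp was found at 17 genes in 11 loci, against 34 genes by summit distance.

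Compared with the whole list, summits at tRNA genes were of ordinary strength. Their median signal value was 216, against 201 over all 8996. Their median place was 4130, and 12 of 25 lay in the weaker part of the list, below place 4498. The leucine gene tRNA:Leu-TAA-2-1 on 3R had a summit of signal value 253, 260 bp upstream and 315 bp from a TSS of CG13605, at places 4752, 4300 and 3176 in the replicates. The arginine genes tRNA:Arg-CCT-1-3 and tRNA:Arg-CCT-1-2 shared one of signal value 149, which stood at places 5057, 5542 and 11149. In an intron of mrj, 3 glutamate genes lay near a pair of summits, at tRNA:Glu-CTC-1-1 (149) and tRNA:Glu-TTC-1-2 (142). The first of these had no summit within 100 bp in replicate 2 and stood at places 9131 and 6252 in replicates 1 and 3. Replicate 2 did hold a strong summit 192 bp from the start of tRNA:Glu-CTC-1-1. The serine genes tRNA:Ser-AGA-2-4 (135) and tRNA:Ser-CGA-1-4 (121) had summits with none of replicate 1 within 100 bp. In the whole list of replicate 1 the nearest summits lay 106 and 3793 bp from these gene starts. The weakest were those of tRNA:Trp-CCA-2-2 (its weaker summit, 104.6), tRNA:iMet-CAT-1-5 (104.8) and tRNA:Ser-CGA-1-1 (105.3), all close to the lowest signal value in the list, 104.5.

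The replicates differed in how many tRNA genes they held. Among the 8996 strongest regions, 21, 27 and 33 tRNA genes had a summit within 500 bp in replicates 1, 2 and 3 (27 ± 6, SD, n = 3), which is 7.24, 9.31 and 11.4% of the 290. Over all annotated genes the shares were 20%, 21.9% and 19.2%, so the replicate with the lowest share of all genes had the highest share of tRNA genes. A strong summit was present within 500 bp in all 3 replicates at 17 genes, in 2 at 11 genes and in 1 at 8 genes, and all 17 and all 11 also had a thresholded summit. Those 17 are the genes whose places are given above for Tyr, Gln, His, Lys-TTT-1-1, Pro-AGG-1-3 and 1-4, and further ones at the Asp, Val-CAC, Phe, Ile and Leu-TAA genes, the Cys locus and Glu-TTC-1-5.

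Of the thresholded summits at tRNA genes, 56% were present in replicate 1, 72% in replicate 2 and 88% in replicate 3 (72 ± 16%, SD, n = 3). All thresholded summits were present at 78.3, 77.9 and 83.4% (79.9 ± 3.04%). Present in all 3 replicates were 12 of the 25 tRNA summits (48%) and 58.0% of all summits. Requiring presence in all 3 replicates left 17 genes, 5.86%, against 6.69% of other noncoding genes. The same requirement on the other two alone left 25 genes without replicate 1, 18 without replicate 2 and 19 without replicate 3. A rule on the other replicates alone cannot leave fewer than the 17 genes, and the count was highest without replicate 1. The initiator genes tRNA:iMet-CAT-1-4 and tRNA:iMet-CAT-1-5 shared a summit that no replicate held among its 8996 strongest regions. Its places in the replicates were 10431, 10831 and 9776.

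**Figure D2:**
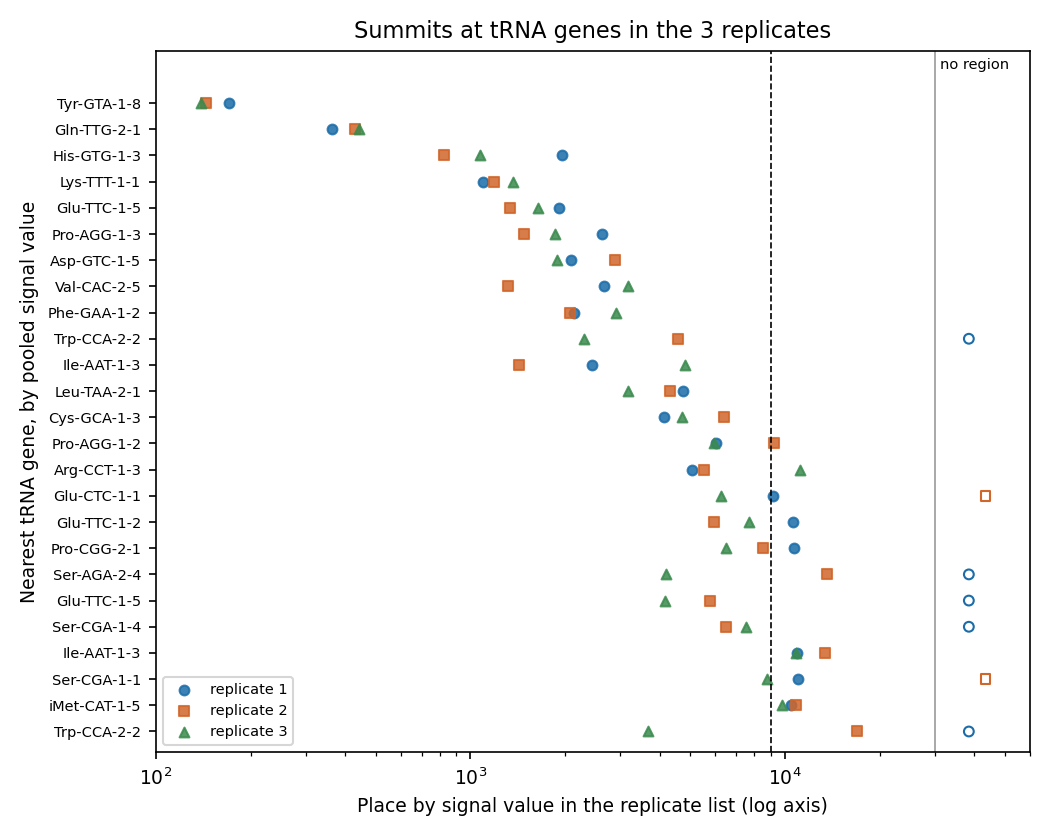
Place by signal value (log axis) of each of the 25 summits in the list of each replicate, in order of pooled signal value from the top. The dashed line marks place 8996 and open symbols at the right mark replicates with no summit within 100 bp among 30000 regions. The 9 strongest summits stand left of the dashed line in all 3 replicates, and the spread widens downwards.

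The tRNA genes were next divided by distance to the nearest protein-coding TSS. Of the 32 tRNA genes within 500 bp of such a TSS, 8 (25%) had a summit, against 22.6% of other noncoding genes and 18.5% of positions in that zone. At 501 to 2000 bp it was 7 of 91 (7.69%), against 10.2% and 5.99%. At over 2000 and up to 10000 bp it was 8 of 108 (7.41%), against 9.05% and 4.79%. In these 3 zones the share of other noncoding genes lay inside the interval of the tRNA share.

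Beyond 10000 bp the order changed. There 11 of 59 tRNA genes had a summit (18.6%, Wilson 10.7 to 30.4%), against 5.31% of 659 other noncoding genes (3.84 to 7.30%) and 2.85% of positions. In replicates 1, 2 and 3 the tRNA share in this zone was 13.6, 11.9 and 18.6% (14.7 ± 3.53%, SD, n = 3). The 11 genes belong to only 4 of the 24 loci in the zone, namely the Pro-AGG locus on 2L, the Cys and Lys locus on 3L, the iMet and Glu locus on 2R and the Arg-TCG and Ser-CGA locus on X. Without the Cys and Lys locus 7 of 55 genes (12.7%) remained; without the others the count was 8, 10 and 8. Requiring presence in all 3 replicates, or in both remaining ones after leaving out replicate 1 or 3, also left 7, and a region overlapping the gene was found at 5 of the 59 (8.47%). No test was made of the difference, since genes of 1 locus share summits and the number of loci is small.

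**Figure D3:**
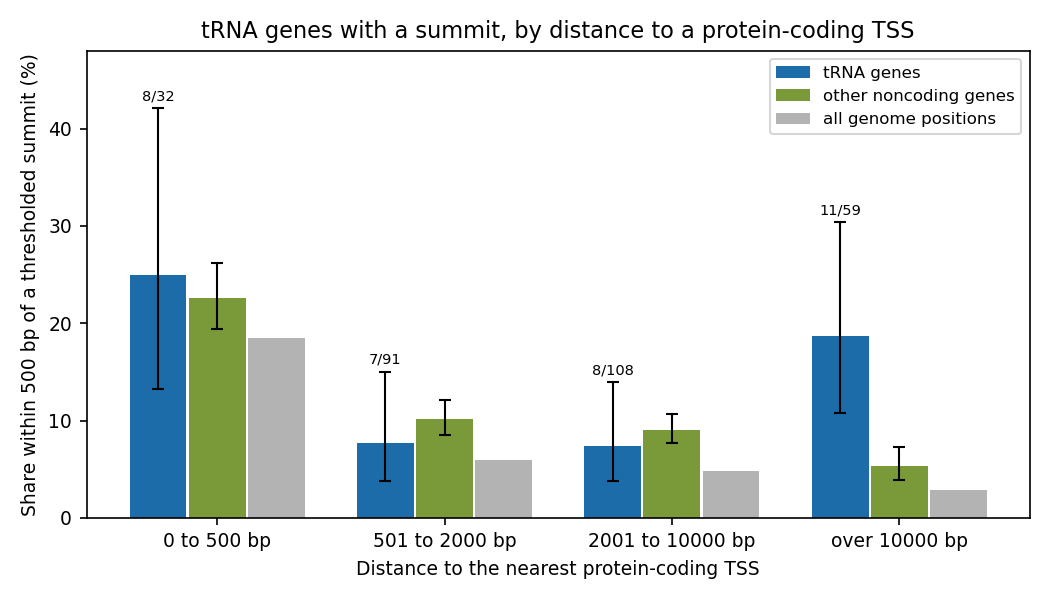
Share of tRNA genes, of other noncoding genes and of all genome positions within 500 bp of a thresholded summit, in percent, by distance to the nearest protein-coding TSS. Bars on genes are 95% Wilson intervals and the labels give tRNA genes with a summit of all in the zone. The tRNA bar stands at 25% within 500 bp of a TSS, at 7.69% and 7.41% in the middle zones and at 18.6% beyond 10000 bp, where other noncoding genes are at 5.31%.

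Chaining tRNA genes that lay within 2000 bp of each other gave 160 loci, of which 91 held 1 gene and 69 held the other 199. A summit was found at 20 loci (12.5%, Wilson 8.24 to 18.5%). Among single genes 7 of 91 (7.69%) had one. Among loci of 2 to 4 genes it was 9 of 62 (14.5%), with 18 of 156 genes, and among loci of 5 or more 4 of 7, with 9 of 43 genes (20.9%, 11.4 to 35.2%). The intervals on the gene shares overlapped, whereas those on the locus shares did not between single genes (3.78 to 15.04%) and loci of 5 or more (57.1%, 25.05 to 84.2%). A locus counts when any of its genes has a summit, and a larger locus covers more sequence. The part of gene number and length in these shares was not tested. The Cys and Lys, the iMet and Glu, and the Arg-TCG and Ser-CGA loci also stand behind the share beyond 10000 bp, so the 2 results rest largely on the same summits.

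The largest loci held 7 genes each, and each had a summit. On X, 3 of the 7 genes of the Arg-TCG and Ser-CGA locus lay within 500 bp of the weak summit beside tRNA:Ser-CGA-1-1. On 2R, 1 gene of the Ile-AAT and Leu-CAA locus and 1 of the iMet and Glu locus had a summit. The locus with most genes near a summit was that of cysteine and lysine tRNAs on 3L, in an intron of the chitinase gene Cht7, 10758 bp from summit to TSS. There a summit with a signal value of 216 and places 4139, 6391 and 4695 in the replicates lay 169 bp upstream of tRNA:Cys-GCA-1-3, 209 bp from the start of tRNA:Cys-GCA-1-2, 404 bp from tRNA:Lys-CTT-1-12 and 463 bp from tRNA:Cys-GCA-1-1. The largest locus with no summit was the one of tRNA:Asn-GTT-1-10 and 5 arginine genes, Arg-ACG-1-6 to Arg-ACG-1-10, on 3R, where the nearest summit lay 1261 bp away.

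By isotype, 17 of 22 had at least 1 gene with a summit. The isotypes without one were alanine (0 of 17), threonine (0 of 17), asparagine (0 of 10), elongator methionine (0 of 6) and selenocysteine (0 of 1). The highest counts were 4 of 20 serine, 4 of 19 glutamate, 4 of 17 proline, 3 of 26 arginine and 3 of 7 cysteine genes. For cysteine all 3 genes shared 1 summit, so the count reflects 1 place in the genome. In the strongest regions of the replicates, serine genes numbered 0, 1 and 6, glutamate 1, 4 and 4, proline 3, 3 and 4, and cysteine 3, 3 and 3. The serine count was thus highest in replicate 3, while the cysteine count was the same in each.

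Initiator methionine tRNA starts every protein, and selenocysteine tRNA reads a stop codon in selenoprotein messages. Of the 6 initiator genes only the pair on 3L in an intron of ome had a summit, 86 and 245 bp away. The others were 983 bp (tRNA:iMet-CAT-2-1), 1300 bp (tRNA:iMet-CAT-1-2), 1514 bp (tRNA:iMet-CAT-1-1) and 1919 bp (tRNA:iMet-CAT-1-3) from the nearest summit. The selenocysteine gene tRNA:SeC-TCA-1-1 was 1581 bp from one.

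**Figure D4:**
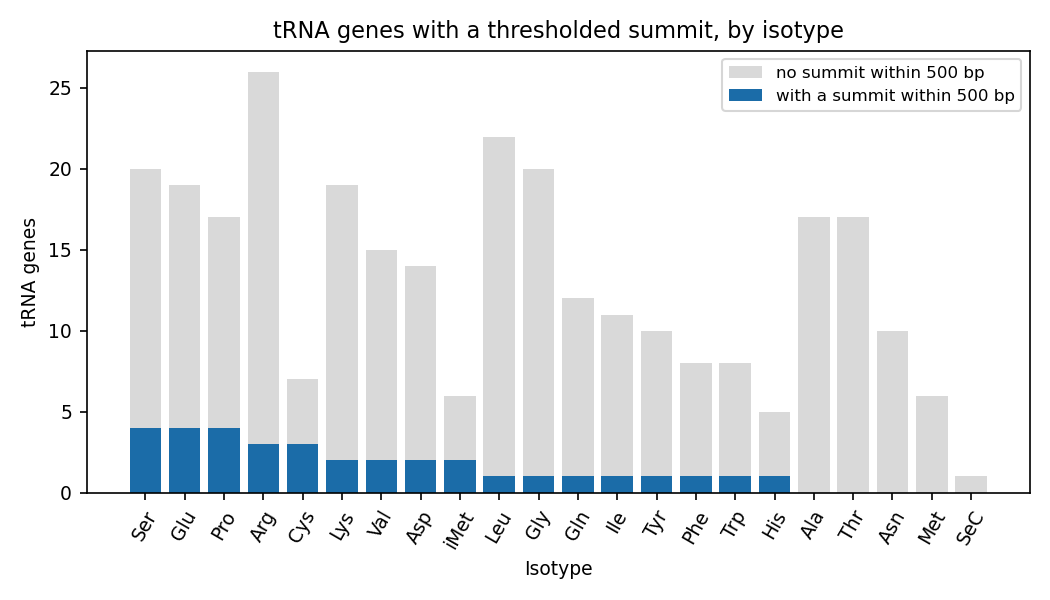
Number of tRNA genes of each isotype, with (blue) and without (grey) a thresholded summit within 500 bp of the gene start. Serine, glutamate and proline reach 4 genes each, and alanine, threonine, asparagine, elongator methionine and selenocysteine have none.

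By chromosome, 7 of 41 genes on 2L, 12 of 98 on 2R, 6 of 48 on 3L, 3 of 79 on 3R (3.80%) and 6 of 24 on X (25%) had a summit, and none of the 290 lies on 4. The X genes lay farthest from protein-coding starts, at a median of 14720 bp. The 6 on X rested on 4 summits. In the strongest regions of replicates 1, 2 and 3, X genes numbered 2, 3 and 6, and 3R genes 4, 3 and 3. By position, 17 of 127 genes in introns of protein-coding genes, 2 of 7 overlapping an exon and 15 of 156 between genes had one. Shares of all genes by chromosome or by position are not given here, so these counts are not read as differences. The median distance to a protein-coding TSS was 2725 bp for genes with a summit and 2895 bp for those without. These medians do not show the ends of the range. Genes with a summit included 8 within 500 bp of a TSS and 11 beyond 10000 bp, the zones with the highest shares.

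Below the threshold the picture was different. In the whole pooled list of 30000 regions, 134 of the 290 tRNA genes (46.2%, Wilson 40.6 to 52.0%) had a summit within 500 bp, against 35.6% of all annotated genes, 27.2% of other noncoding genes and 17.9% of positions. In the whole lists of replicates 1, 2 and 3 the tRNA genes numbered 94, 126 and 147 (32.4, 43.4 and 50.7%; 42.2 ± 9.20%, SD, n = 3), against 26.9%, 27.9% and 26.9% of other noncoding genes (27.2 ± 0.568%). Every replicate thus had the tRNA share above that of other noncoding genes, by most in replicate 3 and least in replicate 1. Over all annotated genes the shares were 36.4%, 40.6% and 36.3%, so replicate 1 was the one in which the tRNA share did not exceed that of all genes. A summit was within 500 bp in all 3 whole lists at 60 genes and in none at 106.

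The weak regions behind this were spread over the lower places. Beyond the thresholded places the pooled list had 89 regions within 500 bp of a tRNA start, at a median place of 20631, against 19498.5 for all such regions. From place 9001 on, each block of 3000 regions held between 6 and 16 regions at tRNA genes, and from place 15001 between 12 and 16. These lists were made to hold background as well as peaks, and the control experiment was not analysed here. Whether such regions occur without the tagged protein was not tested.

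Beyond 10000 bp from a protein-coding TSS the pooled share was 36 of 59 tRNA genes (61.0%, 48.3 to 72.4%), against 22.6% of other noncoding genes and 11.7% of positions. In the replicates it was 45.8, 45.8 and 61.0% (50.8 ± 8.81%), against 19.9 ± 1.12% of other noncoding genes (SD, n = 3). The loci behind it were 16 of 24, against 4 in the thresholded list. This number could not fall, since the longer pooled list kept every tRNA gene that had a thresholded summit. At 0 to 500 bp from a TSS the share was 46.9% of tRNA genes and 42.3% of other noncoding genes.

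The density of summits was then taken by distance from the tRNA starts. In the pooled list the density of summits within 100 bp of a start was 3.17 times the genome mean (exact Poisson 95% interval 2.28 to 4.30, 41 summits), and at 101 to 250 bp it was 2.69 times (1.94 to 3.64, 42 summits). From 251 bp outwards it was between 1.45 and 1.50 times, and at over 2000 and up to 5000 bp it was 1.50 times (1.33 to 1.69, 282 summits). In replicates 1, 2 and 3 the density within 100 bp was 2.01, 3.02 and 3.02 times the genome mean (2.68 ± 0.581, SD, n = 3), against 1.47 ± 0.0163 at over 2000 and up to 5000 bp. The interval within 100 bp was 1.31 to 2.95 in replicate 1, which overlapped that of its outer zone (1.28 to 1.63), and 2.15 to 4.12 in replicates 2 and 3, which did not overlap theirs (1.31 to 1.66 and 1.30 to 1.65). In the thresholded list the density within 100 bp was 1.29 times (0.419 to 3.01, 5 summits) and at 101 to 250 bp 2.35 times (1.17 to 4.20, 11 summits), with intervals that overlapped those of all outer zones. Of 114 pooled summits within 500 bp, 60 were upstream, 17 in the gene and 37 downstream.

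**Figure D5:**
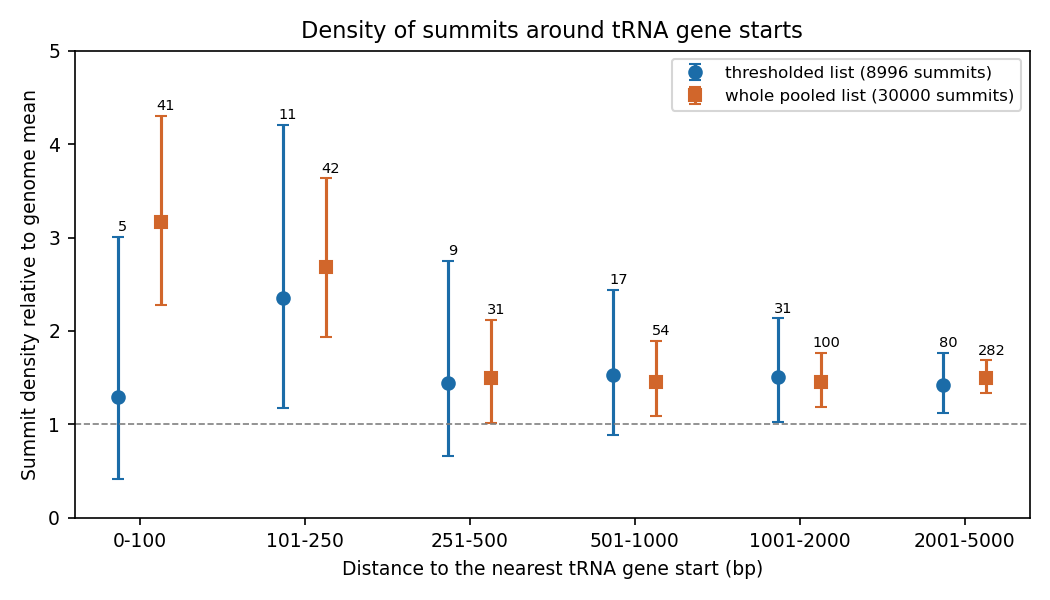
Density of summits relative to the genome mean (dashed line at 1) against distance to the nearest tRNA gene start in bp, for the thresholded and the whole pooled list. Bars are exact Poisson 95% intervals and labels give numbers of summits. In the pooled list the density stands at 3.17 within 100 bp and between 1.45 and 1.50 from 251 bp outwards.

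Most tRNA genes are repeated in the genome. An identical copy existed for 238 of the 290 genes (82.1%), which comprise 95 distinct sequences, and no word of 36 bases within those 238 genes was unique in the genome. With flanks of 500 bp, the window around a gene start was largely unique, at a median of 93.3% of its words. Genes with a summit had a median of 91.7% and 29 of 34 had an identical copy, and genes without one had 93.5%. By window, 0 of 15 genes under 80%, 28 of 163 between 80 and 95% and 6 of 112 (5.36%) above 95% had a summit. A window that holds further repeated tRNA genes has fewer unique words, and neighbouring genes share summits. Repetition and clustering thus cannot be told apart in these bins. Whether reads that map to several places were kept is not given in the sources used here.

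The words searched under the summits were those of the tRNA promoter and of a few fly chromatin proteins. The core of the B box, GGTTCGA, was within 50 bp of 4 of 25 summits on either strand (16%), against 0.634% of all 8996 summits. The word is part of 145 of the 290 tRNA genes (50%), and in windows 500 bp away from the same summits it was found in 8%. The shorter GTTCNA, which overlaps it and was chosen after the gene sequences were seen, was in 272 genes, in 10 of 25 summit windows (40%), in 24% of flank windows and in 15.5% of all summit windows. The A box core TGGCNNAGT was in 34 genes and 1 summit window. All 25 summits were chosen for lying near tRNA genes, which hold these promoter words. Setting the words against all summits therefore cannot tell binding from that choice. Of words known from other fly chromatin proteins, GAGAG, bound by GAGA factor, was in 3 of 25 windows (12%) against 12.6% of all summits, and TATCGATA, bound by DREF, was in 1 (at tRNA:Trp-CCA-2-2) against 1.21%. CACGTG was in 0 of 25, CAGCTG in 1 and CGATA, which TATCGATA contains, in 1. Base composition was alike, with a median GC content of 34.7% in both sets.

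The protein-coding genes that make and use tRNAs were described alongside. Of 61 such genes, 21 (34.4%, Wilson 23.7 to 47.0%) had a thresholded summit near a TSS, at the same distance of 500 bp, compared with 24.6% of all protein-coding genes, which is within the interval. In the strongest regions of replicates 1, 2 and 3 the number was 23, 24 and 19. Of the 17 subunits of Pol III, some shared with the other polymerases, 5 had one, with Polr2H (signal value 498), Polr3E (430), Polr2F (400) and Polr1D (362) the strongest. Polr1C and Polr2E, like the largest subunit gene Polr3A, had none.

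Among factors that recruit Pol III, 2 of 4 TFIIIB genes had a summit, and these 2 summits were the strongest among the 61 genes. Bdp1 had one of signal value 1392, place 170, at 84 bp from a TSS, and Brf one of 919, place 425, at 141 bp. Both were present in all 3 replicates. Trf, the TBP-related factor that serves fly Pol III, and Tbp had none. Of the 4 genes listed under TFIIIC, CG7099, which RefSeq gives as TFIIIC220, had a summit of signal value 795, place 563, and l(2)37Cd had none.

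The RNA chaperone La, which binds the ends of new Pol III transcripts, had a summit of signal value 193, and Myc one of 131. Maf1, the repressor of Pol III, had none. Its nearest thresholded summit lay 3217239 bp away, so the absence covers a long stretch of 2R and is not particular to Maf1. Of 13 processing genes 3 had one, namely Rpp20 (197), a subunit of RNase P, RNaseZ (155), which trims the tRNA end, and Nsun2 (131), a tRNA methyltransferase, whereas Archease and Mt2 had none. Of 20 genes for the synthetases that load tRNAs with amino acids, 8 had one, led by SerRS (913, place 433), GluProRS (595), IleRS (469) and ArgRS (450). CysRS and GlnRS had none.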

How the data were processed

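ChIP-seq peaks of GFP-tagged fru protein were analysed in 3 biological replicates of whole larvae. The signal value of a region is a score that the authors computed from ChIP and control alignments, according to notes deposited beside the lists. The deposited summit offset was added to the region start, and positions are 1-based on dm6. The thresholded list rests on the irreproducible discovery rate (IDR); its cutoff, the aligner and the peak caller were not given in the sources used here. Lists on dm3 were not used.

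Genes came from Ensembl BDGP6.54, release 115, and sequences from RefSeq Release 6; all regions lay within its chromosome lengths, and pseudogenes and transposable elements were left out. Python 3.11.15, numpy 2.4.6, pandas 2.3.3, scipy 1.17.1 and matplotlib 3.10.9 were used. Genome positions near a summit were counted base by base. With 1 group, no test between conditions was possible, and shares are given with 95% Wilson intervals and densities with exact Poisson intervals. The search for the nearest summit and the chaining of genes into loci were tested on simulated positions. The other counting steps had no such test. The tRNA genes, gene lists and words were chosen with earlier results of these data known.

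Named are the nearest tRNA gene of each of the 25 summits of highest signal value, the largest loci with and without a summit, the selenocysteine and initiator genes, and, per role of the protein-coding list, up to 4 members with the strongest summit and up to 2 without one. Other genes named were chosen after their values were seen: Polr3A and genes that share a locus or a boundary with those above. The list entries Tfc5, TfIIIC220, TfIIIC102 and Rpp14 matched no current symbol, and RefSeq gives no role to CG8950 and CG18764, which had no summit. Alternatives were other summit distances, region overlap, other cuts of the list, presence in the replicates, 1 gene per identical sequence, other chaining distances and other word lengths.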

Additional observations from a re-analysis of the deposited data

How the results depend on the processing

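No paired analysis was possible because the samples form 1 group. The tRNA genes with a summit numbered 34 of 290, the loci 20 of 160 and the genes over 2000 bp from a protein-coding TSS 19 of 167. In that order, the counts were 63, 37 and 39 at 1000 bp, 17, 11 and 10 by region overlap, 19, 13 and 9 in the stronger 4498 regions of the list, 17, 12 and 9 for summits in all 3 replicates, and 134, 71 and 79 in the whole pooled list. At 250 bp the genes numbered 22. Leaving out each replicate in turn, with presence required in both others, gave 18 to 25 genes, 12 to 16 loci and 10 to 13 far genes. These counts cannot fall below those with all 3 required, because that rule is the stricter one. Counted by distinct sequence, with a summit at any copy, it was 23 of 95 sequences (24.2%), 20 of 78 loci (25.6%) and 11 of 66 far sequences; a sequence with more copies has more chances, so these shares are not set against those of other genes. Mean presence of tRNA summits in the replicates was 72% among strongest regions and 90.7% in whole lists. The unique share of windows was 93.3% with words of 36 bases and 96.1% with words of 50. Beside 4 summits with GGTTCGA, 10 had GTTCNA. Against other noncoding genes, the tRNA share was higher at 1000 bp (21.7 against 18.6%), in the stronger 4498 regions (6.55 against 6.15%) and without replicate 1 (8.62 against 7.70%), and lower without replicate 2 (6.21 against 7.59%), without replicate 3 (6.55 against 7.70%) and in all 3 replicates (5.86 against 6.69%), so its place above or below them depended on the list. Pathway genes with a summit numbered 14 to 29 across settings. Alternatives for genes beyond 10000 bp, for pathway genes and for GTTCNA, and leaving out single loci, were chosen after seeing the data. The causes were not tested.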

Other observations

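Pol III also reads genes other than tRNA genes, and these were counted in the same way. None of the 96 annotated 5S rRNA genes had a thresholded summit within 500 bp, and the nearest lay 2285 bp away. Sequence repetition was measured for tRNA genes only, so how uniquely reads can be placed at the 5S genes is unknown. These genes lay 4955 to 28561 bp from a protein-coding TSS, and they count among the other noncoding genes used for comparison above. Of the 7SL genes, which encode the RNA of the signal recognition particle, 0 of 2 had one. The RNA of RNase MRP had a summit 286 bp from its start. The strong summits of replicates 1 and 2 lay elsewhere, at 93 and 18 bp from the start, and in replicate 3 the nearest was 3450 bp away. RNaseP:RNA had none. The 7SK gene snRNA:7SKa, whose RNA holds back a transcription elongation factor, had a summit 74 bp from its start and strong summits at 132, 37 and 88 bp in replicates 1, 2 and 3, whereas snRNA:7SKb had none. No U6 gene had a thresholded summit, although snRNA:U6:96Ab and snRNA:U6:96Ac had strong summits within 500 bp in replicates 2 and 3, at 399 and 407 bp and at 124 and 116 bp.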
